A study of Mus musculus with 15 samples.

Results

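Gene expression in the epithelium of the mouse jejunum, the stretch of gut between duodenum and ileum, was compared between 60 and 120 min after an oral peanut challenge. The comparison used 6 of the 15 libraries of the study, 3 labelled 60 min and 3 labelled 120 min, chosen by these labels and by no measured value. All mice were of CC027/GeniUnc, an inbred strain of the Collaborative Cross, and both groups had been sensitized by gavage with crude peanut extract, 2 mg a week for 3 weeks and 5 mg in week 4, and were then challenged with a gavage of 12 mg. The other 9 libraries came from mice given PBS (3), from sensitized mice that were not challenged (3) and from challenged mice 30 min after the gavage (3). Their levels appear below only for orientation, but all 15 libraries were in the fit that estimated the spread, so the p-values rest on all of them. Each library was made from polyadenylated RNA of cells shaken off a stretch of jejunum of 4 cm, which began 6 cm beyond the pylorus and had been kept in EDTA and DTT for 75 min. Each title has a number of its own, and every library was treated as 1 mouse. On that reading no mouse was sampled at both times. No mice gavaged without peanut were analysed here, so time since challenge cannot be told apart from time since gavage, handling or time of day.

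The small intestine is lined by a sheet of cells that stem cells at the base of the crypts renew without pause. Enterocytes on the villi absorb sugars, fats and bile acids, while Paneth cells stay at the crypt base and secrete antimicrobial peptides. Cells make cholesterol from acetyl-CoA through mevalonate and squalene, and most enzymes of that route are switched on together by the transcription factor SREBP-2 when membranes of the endoplasmic reticulum hold little sterol. Bile acids enter the enterocyte, bind the nuclear receptor FXR, and leave through the exporter OSTα/OSTβ, which FXR itself controls.

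The libraries held 15967713 to 19551034 estimated counts at 60 min and 18768703 to 22215649 at 120 min. Epithelial markers were high in all 6, with summed levels over 9 genes of 7709.8 to 12341 CPM (counts scaled to library size) at 60 min, lowest in replicate 3, and 13476 to 13830.1 CPM at 120 min. The library of 60 min replicate 3 stood apart. Mitochondrially encoded genes took 33.2% of its counts, against 14% and 18.3% in the other 60 min libraries and 13.8% to 16.6% at 120 min (exact two-sided permutation p = 0.4 for the difference of the groups). The median absolute difference in log2 CPM between 60 min libraries was 0.27 to 0.47, and between 120 min libraries it was 0.25 to 0.32. B and plasma cell markers summed to 1171 to 1920.2 CPM at 60 min and to 139.9 to 482 CPM at 120 min. T cell and intraepithelial lymphocyte markers summed to 60.8 to 166 CPM and to 35.3 to 99 CPM. Marker sums, here and below, were scaled by total counts with the mitochondrial ones included, unlike the CPM of single genes.

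Between 60 and 120 min, 88 genes were higher and 80 were lower, together 168 of 14968 tested, or 1.12% (0.588% higher and 0.534% lower; adjusted p below 0.05, edgeR's quasi-likelihood test with Benjamini-Hochberg adjustment over all genes). Sterol synthesis and bile acid export genes were among those higher, and Paneth cell and stem cell genes among those lower. The median size was 1.71-fold for the higher genes and 2.02-fold for the lower ones. In each of the 168 genes all 3 libraries at 120 min lay on one side of all 3 at 60 min, a separation found in 10.2% of all tested genes upward and in 9.78% downward. The adjusted p-values of the called genes lay between 0.019 and 0.0495, close to the threshold, and 2954 genes had an unadjusted p below 0.05. Over all tested genes 49.5% were positive and the median log2 difference was −0.005.

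The number of calls depended on single libraries. It was 1151 without 60 min replicate 1, 2 without 60 min replicate 2, 2 without 60 min replicate 3, 298 without 120 min replicate 2, and 0 without 120 min replicate 1 or without 120 min replicate 3, where edgeR still gave 2012 and 2365 genes an unadjusted p below 0.05. With the mitochondrial share as a covariate 4 genes passed, with offsets for transcript length 46, and in the 6 libraries alone 0, with 1875 at an unadjusted p below 0.05 (DESeq2 gave 937 and limma-voom 179 on all 15 libraries). The split between directions moved with the scaling, from 88 higher and 80 lower to 62 and 139 with upper quartile scaling. It was 110 and 162 when genes averaging under 5 CPM were left out, 68 and 86 with mitochondrially encoded genes removed, and 19 and 27 with the length offsets. The 168 genes kept their sign under each of the 16 alternatives, 158 of them being tested when genes under 5 CPM were left out. They had been called from these same libraries and did not overlap between the groups, so the kept sign was largely set by that choice.

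**Figure D1:**
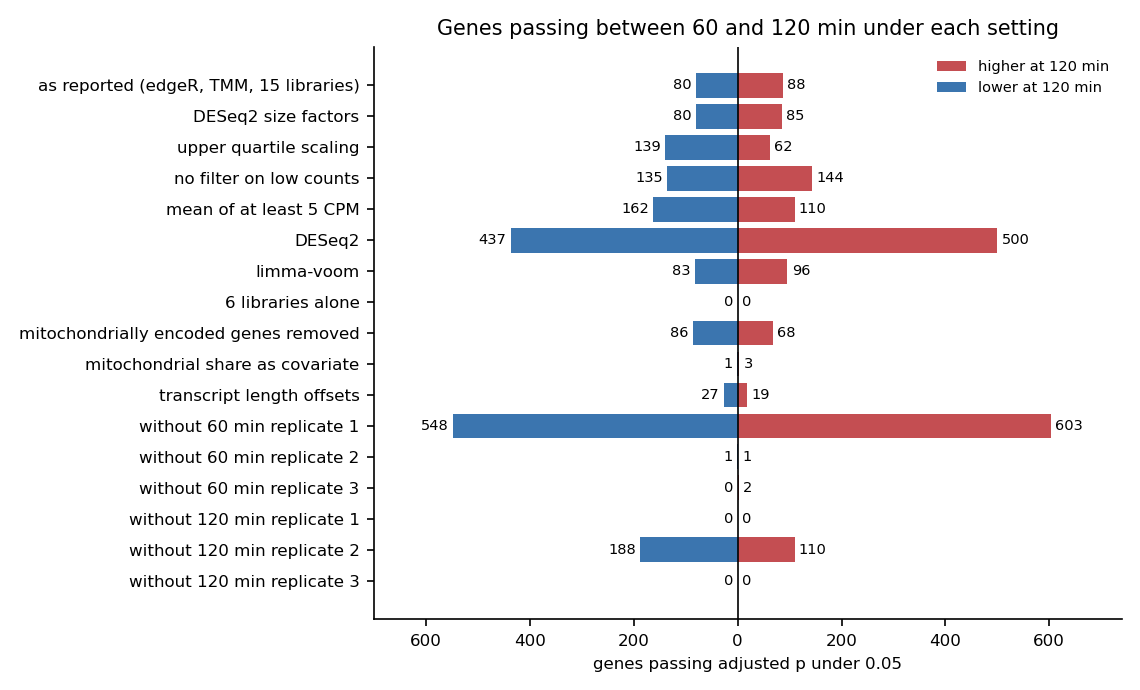
Genes passing an adjusted p of 0.05 between 60 and 120 min (horizontal axis, number of genes; red bars to the right, higher at 120 min; blue bars to the left, lower) under each analysis setting (vertical axis). The bars run from 0 genes in the 6 libraries alone and without 120 min replicate 1 or 3 to 603 higher and 548 lower without 60 min replicate 1.

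Genes of sterol synthesis were the group in which the largest number of listed genes passed. Of 19 tested enzymes of the route all 19 were positive, 8 were higher at 120 min and 0 lower, and the median log2 difference was 0.68, against −0.005 over all genes. Of all tested genes 0.588% were higher. In 16 of the 19 every 120 min library lay above every 60 min library, against 10.2% of all genes. Averaged over the 19 genes, log2 CPM ran from 5.65 to 5.80 at 60 min and from 6.23 to 6.62 at 120 min, without overlap. The median stayed between 0.55 and 0.82 under every alternative. The number that passed was 9 without 60 min replicate 1 and without 120 min replicate 2, 4 with the offsets for transcript length, and 0 without any 1 of the other 4 libraries, with the mitochondrial share as a covariate or in the 6 libraries alone. DESeq2 called 13. Hmgcs1, an early enzyme of the route, was not analysed here.

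The 7 called genes described here lie along the route, and 5 of the 8 called genes have an entry in the reference table of promoters. Parts of these promoters are shown because their genes were higher together. The bases are given 5′ to 3′ on the strand of the gene, from RefSeq on GRCm38.p6 (mm10), and capitals mark the letters CCAAT or their complement ATTGG, the box that the factor NF-Y binds and that often stands beside SREBP sites. For Lss and Nsdhl the printed stretch is the part of the 150 bases before the RefSeq start that lies outside annotated exons. For the other 3 no box in those bases lay wholly outside annotated exons, so a window of 30 bases around the first box is printed.
Idi1, chr13:8885549-8885578, plus strand: tgcctccagctgATTGGcgagcccgggcat
Lss, chr10:76531455-76531587, plus strand: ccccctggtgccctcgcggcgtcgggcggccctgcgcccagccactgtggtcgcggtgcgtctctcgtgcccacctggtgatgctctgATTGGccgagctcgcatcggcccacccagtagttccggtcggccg
Cyp51, chr5:4104709-4104738, minus strand: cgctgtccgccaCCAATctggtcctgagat
Msmo1, chr8:64733657-64733686, minus strand: ccttagcacggaCCAATcactgcacggcga
Nsdhl, chrX:72918412-72918520, plus strand: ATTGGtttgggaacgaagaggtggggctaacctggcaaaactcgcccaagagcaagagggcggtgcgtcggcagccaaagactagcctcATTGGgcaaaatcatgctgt

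The first box began at position −45 in Idi1, −62 in Lss, −29 in Cyp51, −96 in Msmo1 and −109 in Nsdhl, where −1 is the base before the start. Idi1, Msmo1 and Nsdhl each held 2 boxes in the 150 bases, the other of Nsdhl at −20. In the full window from 250 bases before to 50 after the start, CCAAT stood on either strand in all 5 of these promoters and in 13 of the 14 sterol gene promoters with an entry, against 42.8% of 10700 promoters of tested genes. The GC box GGGCGG was in 5 of the 5 and 13 of the 14, and in 65.9% of all. The sterol element TCACNCCAC was in 0 of the 14 and in 1.37% of all. CCAAT and GGGCGG were added to the search after other motifs had been counted. Among all called genes with an entry CCAAT was in 29 of 65 higher and 27 of 62 lower ones. These are matches of letters in a window, and no binding was measured. Fdps and Fdft1, which also passed, had no entry.

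In the early, isoprenoid part of the route, Idi1 (ENSMUSG00000058258.14, chromosome 13 from 8885501 to 8892451), which isomerizes the first isoprenoid unit, was at 121, 120.0 and 81.6 CPM at 60 min and 194, 154 and 243 CPM at 120 min. The groups did not overlap, a 1.83-fold difference (log2 difference 0.87 ± 0.19 SE, adjusted p = 0.0386). Fdps (ENSMUSG00000059743.12, chromosome 3 from 89093588 to 89101959), which joins isoprenoids to farnesyl diphosphate, was at 44.9, 47.1 and 35.8 CPM at 60 min and 98.4, 67.5 and 132 CPM at 120 min. It had the largest difference of the 19 genes, 2.33-fold (1.22 ± 0.22, adjusted p = 0.0235), and all 3 of its 120 min libraries exceeded the highest 60 min library, with 120 min replicate 2 the lowest of them. Fdft1, the squalene synthase, was at 95.6, 90.8 and 98.6 CPM at 60 min and 139, 148 and 164 CPM at 120 min, again without overlap (0.66 ± 0.13, adjusted p = 0.0259).

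In the later part, where squalene is closed to lanosterol and trimmed to cholesterol, Lss (ENSMUSG00000033105.12, chromosome 10 from 76531588 to 76557138), the lanosterol synthase, was at 37.7, 45.7 and 40.6 CPM at 60 min and 82.8, 68.4 and 101 CPM at 120 min, which is 2.04-fold higher (1.03 ± 0.18, adjusted p = 0.0215). Cyp51, which removes a methyl group from lanosterol, was at 108, 109 and 97.8 CPM at 60 min and 172, 168 and 229 CPM at 120 min (0.85 ± 0.14, adjusted p = 0.019). Msmo1 (ENSMUSG00000031604.10, chromosome 8 from 64718139 to 64733792), a methylsterol oxidase, was at 116, 107 and 84.6 CPM at 60 min and 195, 184 and 213 CPM at 120 min, with the 120 min libraries within a narrow range (0.95 ± 0.15, adjusted p = 0.019). Nsdhl, a sterol dehydrogenase of the same demethylation steps, was at 27.9, 30.9 and 27.9 CPM at 60 min and 51.6, 41.4 and 68.2 CPM at 120 min (0.89 ± 0.17, adjusted p = 0.0284). In Lss and Msmo1 the 60 min libraries lay on both sides of the mean of the unchallenged sensitized mice (41.1 ± 0.876 and 101 ± 1.52 CPM, SD, n = 3), while all 120 min libraries were above it.

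The other 11 did not pass. Those with the smallest adjusted p among them were Sqle, the squalene epoxidase (0.69 ± 0.17, adjusted p = 0.0584), Acat2, which starts the route (0.86 ± 0.24, adjusted p = 0.0809), and Hsd17b7 (0.59 ± 0.16, adjusted p = 0.0859). They are named here after their values were seen. Sc5d, at the lower end, had 0.08 ± 0.22 and overlapping libraries, with the highest 60 min value, 133 CPM, in 60 min replicate 3.

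**Figure D2:**
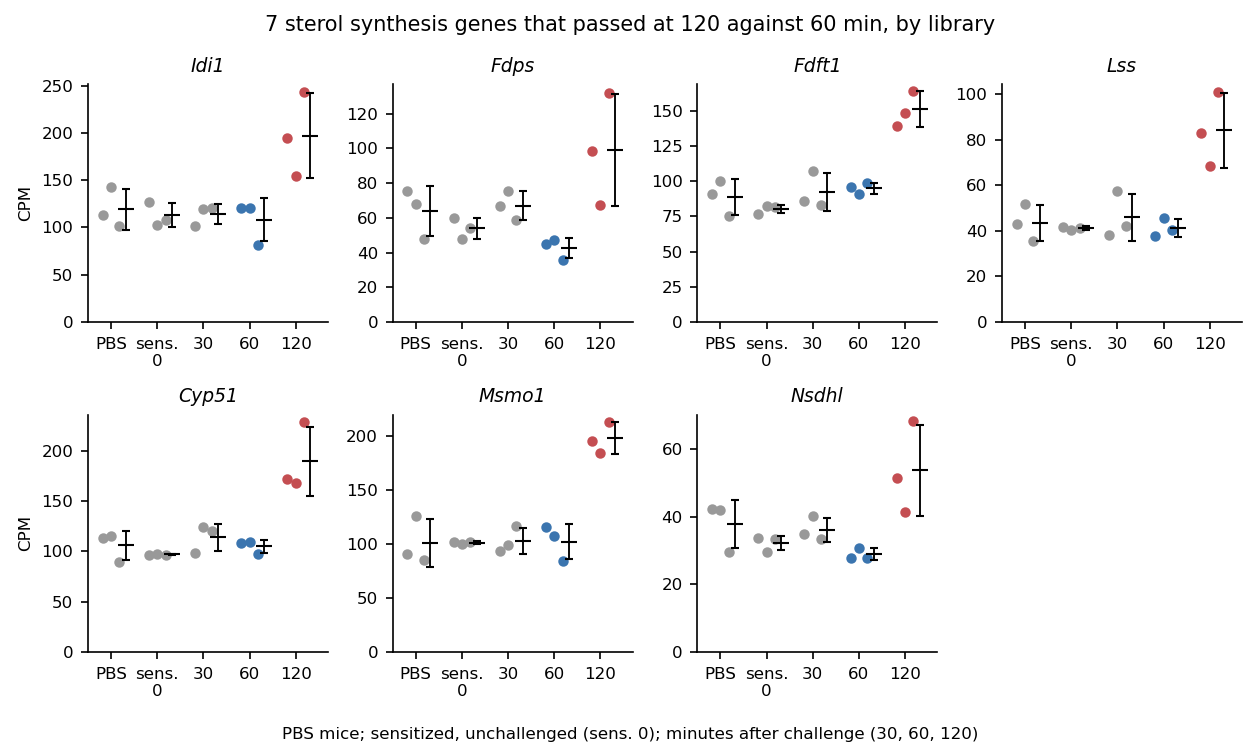
Level in CPM (vertical axes, each from 0) of 7 sterol synthesis genes that passed, in the 15 libraries by group (horizontal axes). Points are libraries, blue for 60 min and red for 120 min, and the bar beside them is the mean ± SD of 3. In each panel the red points lie above all blue points, as for Msmo1 with 184 to 213 CPM against 84.6 to 116 CPM.

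Among 16 genes of SREBP control and cholesterol traffic 11 were positive and the median was 0.26 (0.07 to 0.27 over the alternatives). Several genes that did not pass are named for their role, after their values were seen. Insig1, which holds SREBP back in the endoplasmic reticulum, was at 178, 152 and 98.4 CPM at 60 min and 212, 232 and 218 CPM at 120 min (0.63 ± 0.18, adjusted p = 0.0941). The transcription factor genes themselves had 0.29 ± 0.12 (Srebf2) and 0.32 ± 0.17 (Srebf1) with adjusted p of 0.207 and 0.306. Npc1l1, which takes up cholesterol from the lumen, had −0.13 ± 0.27, adjusted p = 0.815. Among other called genes of lipid metabolism, named after their values were seen, Erg28, a scaffold of the sterol demethylation enzymes, was higher (0.64 ± 0.14, adjusted p = 0.0453). Sult2b1, a cholesterol sulfotransferase, was higher as well (0.97 ± 0.18, adjusted p = 0.0259), whereas Soat1, which esterifies cholesterol, was lower, at 26.1, 30.5 and 24.8 CPM at 60 min and 12.9, 11.6 and 16.9 CPM at 120 min (−0.97 ± 0.18, adjusted p = 0.0259).

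In bile acid transport and FXR, both exporter subunits and the receptor itself were higher. Of 8 tested genes 7 were positive, 3 passed as higher and 0 as lower, and the median was 0.87 (0.72 to 0.98 over the alternatives). Of all tested genes 0.588% passed as higher. Every 120 min library lay above every 60 min library in 6 of the 8, against 10.2% of all genes. The mean log2 CPM was 4.67 to 5.01 at 60 min and 5.68 to 6.20 at 120 min. The number that passed as higher was 2 without 120 min replicate 2, 1 with the mitochondrial share as a covariate, and 0 in the 6 libraries alone and without 60 min replicate 2 or 3 or 120 min replicate 1 or 3. Without 60 min replicate 1, 3 passed as higher and 1 as lower.

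Both subunits of the exporter at the basal side of the enterocyte passed. Slc51b, the β subunit (ENSMUSG00000053862.6, chromosome 9 from 65412714 to 65422955), was at 34.2, 22.3 and 15.2 CPM at 60 min and 85.8, 59.4 and 57.4 CPM at 120 min. The groups were apart by a wide margin, and the difference was 2.82-fold (1.49 ± 0.24, adjusted p = 0.019). Slc51a, the α subunit, was at 186, 207 and 184 CPM at 60 min and 364, 345 and 269 CPM at 120 min, 1.69-fold higher (0.76 ± 0.16, adjusted p = 0.04). Nr1h4, which encodes FXR (ENSMUSG00000047638.15, chromosome 10 from 89454234 to 89533585), was at 96.5, 78.5 and 65.3 CPM at 60 min and 152, 137 and 149 CPM at 120 min, with 60 min replicate 3 the lowest library and the 3 at 120 min close together (0.87 ± 0.16, adjusted p = 0.0253). The uptake carrier Slc10a2 and the hormone Fgf15, an FXR target that acts on the liver, had the largest differences of the list but varied more between libraries and did not pass. Slc10a2 was at 23.1, 23.4 and 8.72 CPM at 60 min and 108, 45.8 and 80.4 CPM at 120 min (2.08 ± 0.56, adjusted p = 0.0906) and Fgf15 at 21.5, 19.6 and 8.92 CPM at 60 min and 66.7, 73.9 and 26.8 CPM at 120 min (1.74 ± 0.64, adjusted p = 0.174). These are chiefly genes of the ileum, and they are named here after their values were seen. Fgfr4, the receptor for this hormone in the liver, was higher in the isolates, at 19.2, 14.2 and 7.79 CPM at 60 min and 40.4, 29.8 and 42.4 CPM at 120 min (1.45 ± 0.30, adjusted p = 0.0386). It was the 1 of 11 tested genes of FGF receptor signalling to pass, in a list with a median of −0.20 whose sign changed without 60 min replicate 1 (0.15) and with genes under 5 CPM left out (0.24).

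Genes known to respond to glucocorticoids, the hormones of the adrenal cortex, were positive in 16 of 18, with a median of 0.76 (0.51 to 0.96 over the alternatives), 2 higher and 0 lower. In 10 of the 18 every 120 min library lay above every 60 min library, against 10.2% of all genes. Of all tested genes 0.588% were higher. The level of the list was 5.23 to 5.96 at 60 min and 6.45 to 6.89 at 120 min in mean log2 CPM. Angptl4 (ENSMUSG00000002289.16, chromosome 17 from 33773750 to 33781830), a secreted inhibitor of lipoprotein lipase, was at 34.7, 30.7 and 20.3 CPM at 60 min and 123, 54.3 and 104 CPM at 120 min. Its lowest 120 min library was well above its highest 60 min library (3.28-fold; 1.71 ± 0.31, adjusted p = 0.0272). Cebpd, a transcription factor of the C/EBP family, was at 9.73, 9.13 and 4.79 CPM at 60 min and 21.8, 14.6 and 22.3 CPM at 120 min (1.31 ± 0.27, adjusted p = 0.0371). Both lost the call without 60 min replicate 2 or 3 and without 120 min replicate 1 or 3.

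Several members with large differences did not pass, and their libraries at 120 min spread widely. Fkbp5, a co-chaperone of the glucocorticoid receptor, was at 45.3, 62.3 and 33.6 CPM at 60 min and 381, 122 and 378 CPM at 120 min (2.64 ± 0.72, adjusted p = 0.0989). Zbtb16 was at 0.869, 4.4 and 2.73 CPM at 60 min and 19.3, 5.44 and 19.8 CPM at 120 min (2.47 ± 1.01, adjusted p = 0.207), Sgk1, a kinase that raises sodium uptake, at 60.7, 109 and 49.1 CPM at 60 min and 332, 143 and 225 CPM at 120 min (1.68 ± 0.51, adjusted p = 0.117), and Hif3a at 1.36, 1.99 and 1.66 CPM at 60 min and 7.53, 3.57 and 6.8 CPM at 120 min (1.83 ± 0.43, adjusted p = 0.0548). In all 4, which are named after their values were seen, 120 min replicate 2 was the lowest of the 120 min libraries and still above every 60 min library. DESeq2 called 7 of the 18 as higher, beside 500 of all 14968 tested genes. Per1, Dusp1 and Nfkbia, chosen in the same way from the list, had 0.04 ± 0.24, −0.09 ± 0.16 and −0.09 ± 0.15. Corticosterone was not measured, and the times of day are not in the labels used here.

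**Figure D3:**
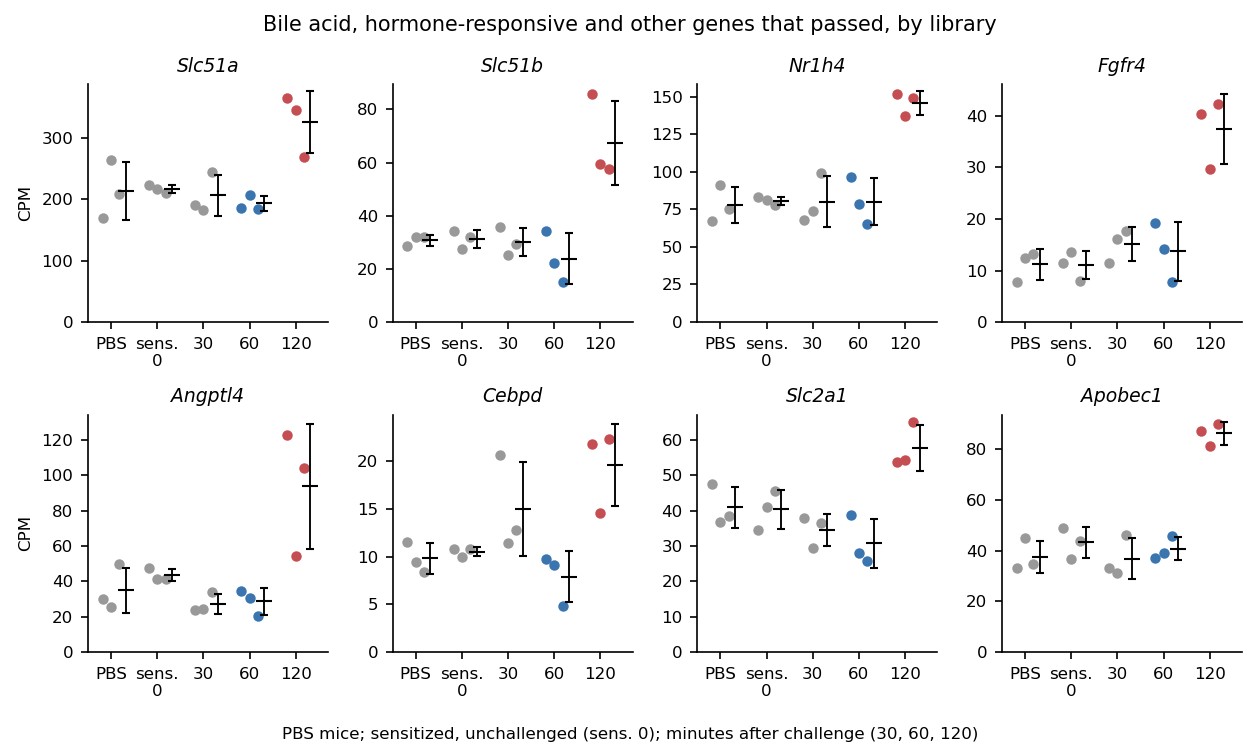
Level in CPM (vertical axes, each from 0) of 8 genes that passed as higher at 120 min, from the bile acid, glucocorticoid and other lists, in the 15 libraries by group (horizontal axes). Points are libraries, blue for 60 min and red for 120 min, and the bar beside them is the mean ± SD of 3. Blue and red points do not overlap in any panel, with Slc51b at 15.2 to 34.2 CPM against 57.4 to 85.8 CPM.

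Of 20 genes of hypoxia and glycolysis, 17 were positive, 2 were higher and 0 lower, with a median of 0.30, where 0.588% of all tested genes were higher. Slc2a1, the glucose transporter GLUT1, was at 38.7, 27.9 and 25.6 CPM at 60 min and 53.8, 54.3 and 65.1 CPM at 120 min (0.91 ± 0.17, adjusted p = 0.0259), and Epas1, a hypoxia-inducible factor, at 7.5, 14.3 and 7.59 CPM at 60 min and 20.2, 17.6 and 20 CPM at 120 min (0.97 ± 0.22, adjusted p = 0.0476). In both, the groups were separate. All 20 nuclear genes of oxidative phosphorylation were positive, with a median of 0.34 and no overlap in 12, against 10.2% of all genes. Of these Cyc1, the cytochrome of complex III, was the 1 that passed, at 240.0, 229 and 207 CPM at 60 min and 325, 281 and 326 CPM at 120 min (0.46 ± 0.11, adjusted p = 0.0488). DESeq2 called 9 of the 20 as higher, beside 500 of all 14968 tested genes. With the offsets for transcript length 0 genes passed in the hypoxia, oxidative phosphorylation, NRF2, epithelium and immediate early lists. Nor did any gene then pass in the lists of ribosome biogenesis, villus tip, hexose absorption, FGF receptor signalling and osmotic response.

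All 12 glutathione transferases, which couple glutathione to reactive compounds, were positive, with a median of 0.35. In 8 of them every 120 min library lay above every 60 min library, against 10.2% of all genes. Of the 12, 2 passed as higher, where 0.588% of all tested genes did. Gsta4 was at 23.8, 18.6 and 13.4 CPM at 60 min and 40.8, 32.5 and 39.3 CPM at 120 min (1.01 ± 0.17, adjusted p = 0.0216) and Mgst1, the form in membranes, at 213, 192 and 135 CPM at 60 min and 366, 302 and 324 CPM at 120 min (0.88 ± 0.15, adjusted p = 0.0216). In Gsta4, Mgst1, S100a10 and Fgfr4 the lowest value of all 6 was in 60 min replicate 3, the library with the high mitochondrial share. The same held for other higher genes, among them Slc51b, Nr1h4, Angptl4, Idi1, Fdps and Msmo1, but not for Lss, Fdft1 or Apobec1. Without 60 min replicate 3 none of the 51 named genes that passed kept the call. The log2 differences were then 0.80 for Gsta4, 0.69 for Mgst1, 0.75 for S100a10 and 1.15 for Fgfr4 (adjusted p = 0.0788, 0.0788, 0.127 and 0.127, edgeR). Of 19 targets of NRF2, the regulator of antioxidant genes, 15 were positive and 1 passed, with a median of 0.44. It was Gpx2, the glutathione peroxidase of the gut epithelium, at 196, 182 and 195 CPM at 60 min and 316, 257 and 424 CPM at 120 min (0.80 ± 0.17, adjusted p = 0.0382). The levels of the list kept to a narrow band at each time, 6.26 to 6.35 at 60 min and 6.62 to 6.67 at 120 min in mean log2 CPM. DESeq2 called 8 of the 19 as higher, beside 500 of all 14968 tested genes.

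Among markers of the epithelium 8 of 9 were positive and 2 were higher, with a median of 0.39, where 0.588% of all tested genes were higher. Krt20, a keratin of mature surface cells, was at 424, 499 and 409 CPM at 60 min and 828, 651 and 653 CPM at 120 min (0.68 ± 0.15, adjusted p = 0.0404), and Cdx1, an intestinal homeobox factor, at 116, 118 and 101 CPM at 60 min and 164, 142 and 192 CPM at 120 min (0.57 ± 0.12, adjusted p = 0.0386). Krt20 was also the 1 of 10 villus tip genes to pass. The median of that list, 0.38, turned to −0.13 without 120 min replicate 1. Myc, the growth regulator (ENSMUSG00000022346.15, chromosome 15 from 61985391 to 61990374), was at 19.2, 20.2 and 11.3 CPM at 60 min and 30.3, 25.7 and 45.7 CPM at 120 min (1.0 ± 0.21, adjusted p = 0.0386), and it was the 1 gene called in each of 2 lists, 20 immediate early genes (median 0.24) and 19 genes of ribosome biogenesis (median 0.33, 16 positive). The taurine transporter Slc6a6, an osmotic response gene, was at 217, 306 and 233 CPM at 60 min and 659.9, 433 and 544 CPM at 120 min (1.11 ± 0.22, adjusted p = 0.0296). The other 5 tested genes of that list did not pass, and the sign of its median, 0.01, changed under 9 alternatives.

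The largest other rises came from genes of varied function. Apobec1 (ENSMUSG00000040613.14, chromosome 6 from 122577792 to 122602444), the enzyme that edits the mRNA of apolipoprotein B, was at 37.3, 39 and 46 CPM at 60 min and 87.2, 81.5 and 90.2 CPM at 120 min, with little spread at either time, and was 2.12-fold higher (1.08 ± 0.16, adjusted p = 0.019). Adm, the vasodilator peptide adrenomedullin, was at 8.48, 3.92 and 4.13 CPM at 60 min and 13.6, 14.9 and 15.6 CPM at 120 min (1.41 ± 0.28, adjusted p = 0.0308). Ddah1, which breaks down an inhibitor of nitric oxide synthase, was at 10.9, 17.7 and 12.9 CPM at 60 min and 25.1, 31 and 38.8 CPM at 120 min (1.19 ± 0.22, adjusted p = 0.0235). S100a10, the partner of annexin A2, was at 216, 153 and 104 CPM at 60 min and 349, 282 and 312 CPM at 120 min (1.0 ± 0.20, adjusted p = 0.0353), and Anxa2 itself, named after its value was seen, had 0.73 ± 0.12, adjusted p = 0.0215. Clca3a1 (1.31 ± 0.30, adjusted p = 0.0476), with close copies of its sequence in the genome, is uncertain as a single gene.

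Of 8 tested Paneth cell markers 5 were lower at 120 min, 0 were positive, and the median log2 difference was −1.34 (−1.64 to −1.15 over the alternatives), against −0.005 over all genes. Of all tested genes 0.534% were lower. The summed level of all 10 listed markers was 6366 to 8601 CPM at 60 min and 1922 to 3884 CPM at 120 min, without overlap. It was 4207 to 4999 CPM in the unchallenged sensitized mice and 4765 to 9128 CPM at 30 min. In bulk RNA, fewer cells of a type and less RNA per cell cannot be told apart. The number that passed was 6 without 60 min replicate 1, 2 without 120 min replicate 2, 1 without the filter on low counts, and 0 without any 1 of the other 4 libraries, with the mitochondrial share as a covariate or in the 6 libraries alone. Lyz1 and Defa21, 2 of the 10 markers, were not tested.

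Itln1, a lectin that binds sugars of microbes (ENSMUSG00000038209.12, chromosome 1 from 171518122 to 171535294), was at 1532, 1878 and 2832 CPM at 60 min and 589.8, 464 and 838 CPM at 120 min. Replicate 3 was the highest at both times, and the lowest 60 min library was well above every 120 min library (3.3-fold lower; −1.72 ± 0.27, adjusted p = 0.019). Ang4, an antimicrobial ribonuclease, was at 143, 187 and 335 CPM at 60 min and 46.9, 29.1 and 73.5 CPM at 120 min (−2.15 ± 0.43, adjusted p = 0.0404). The α-defensin Defa24 (ENSMUSG00000064213.5, chromosome 8 from 21734494 to 21735471) was at 2682, 2186 and 2394 CPM at 60 min and 1027, 613 and 1420.3 CPM at 120 min (−1.25 ± 0.27, adjusted p = 0.0404), Defa30 at 2506, 2280.3 and 2051 CPM at 60 min and 1084, 669 and 1243 CPM at 120 min (−1.19 ± 0.27, adjusted p = 0.0488), and Defa17 at 409, 365 and 484 CPM at 60 min and 156, 96.1 and 213 CPM at 120 min (−1.43 ± 0.27, adjusted p = 0.0284). In all 3 the lowest library was 120 min replicate 2. Defa36 was among the 15 largest falls (−1.41 ± 0.30, adjusted p = 0.0404). Defensins and Ang4 have near-identical copies between which reads are shared, so single values are uncertain. Mmp7, the protease that activates defensins, was at 65.9, 74.5 and 96.4 CPM at 60 min and 31.2, 18 and 36 CPM at 120 min and did not pass (−1.47 ± 0.33, adjusted p = 0.0552), and it is named after its value was seen. Reg4, a lectin of secretory cells (ENSMUSG00000027876.4, chromosome 3 from 98222156 to 98236748), was lower, at 93.9, 103 and 134 CPM at 60 min and 40.4, 35.5 and 56.5 CPM at 120 min (−1.32 ± 0.26, adjusted p = 0.0335), the 1 of 5 Reg genes to pass. The Reg list went the other way, with 4 of the 5 positive and a median of 0.59 (0.21 to 0.74 over the alternatives). The markers of goblet cells, the mucus secretors, had a median of −0.09, with 5 of 13 positive and 0 passing (0 at an unadjusted p below 0.05, and 0 by DESeq2 and limma-voom). The values of Paneth cell and goblet cell genes stand side by side here, and their difference was not tested.

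Of 18 tested stem cell and Wnt genes 4 were positive, 3 passed as lower and 0 as higher, with a median of −0.28 (−0.48 to −0.21). Of all tested genes 0.534% passed as lower. Lgr5, the receptor for R-spondins that marks stem cells of the crypt base (ENSMUSG00000020140.15, chromosome 10 from 115450311 to 115587780), was at 34.9, 37.5 and 33.9 CPM at 60 min and 13.2, 14.9 and 21.9 CPM at 120 min. The 60 min libraries were tightly grouped above all those at 120 min (2.12-fold lower; −1.09 ± 0.25, adjusted p = 0.0476). Ephb3, a receptor that keeps Paneth and stem cells in the crypt base, was at 32.9, 33.1 and 27.2 CPM at 60 min and 17.2, 16.7 and 22.9 CPM at 120 min (−0.71 ± 0.15, adjusted p = 0.0371), and Cd44, a hyaluronan receptor and Wnt target, at 35.6, 25.9 and 27.2 CPM at 60 min and 13.6, 16.7 and 21.4 CPM at 120 min (−0.78 ± 0.18, adjusted p = 0.0476). In 5 of the 18 every 120 min library lay below every 60 min library, against 9.78% of all genes. Olfm4 and Axin2, named after their values were seen, overlapped between the groups. Olfm4 was at 1024, 867 and 506 CPM at 60 min and 539, 521 and 777 CPM at 120 min (−0.38 ± 0.25, adjusted p = 0.405) and Axin2, a direct Wnt target, at 56.7, 55.3 and 31.8 CPM at 60 min and 51.9, 33.9 and 71.5 CPM at 120 min (0.13 ± 0.25, adjusted p = 0.813). The 3 calls were kept without 60 min replicate 1, and 1 was kept without 120 min replicate 2. With the offsets for transcript length 1 passed. None passed without any 1 of the other 4 libraries, with the mitochondrial share as a covariate or in the 6 libraries alone.

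In the lists for cell division no gene passed. Of all 14968 tested genes 2954 had an unadjusted p below 0.05 in edgeR, and DESeq2 called 937 and limma-voom 179. The counts of list members, here and below, are to be read beside these. Of 20 mitosis genes 6 were positive, with a median of −0.20 and 0 passing (3 lower at an unadjusted p below 0.05, 2 by DESeq2 and 0 by limma-voom). Of 21 DNA replication genes 19 were positive, with a median of 0.12 that turned to −0.12 without 120 min replicate 3, and 0 passed (5 higher at an unadjusted p below 0.05, 0 by DESeq2 and limma-voom). Cenpe, a kinesin of the spindle, had −0.56 ± 0.17, adjusted p = 0.108, and Ccne2, a cyclin of S phase entry, had 0.90 ± 0.30, adjusted p = 0.134.

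**Figure D4:**
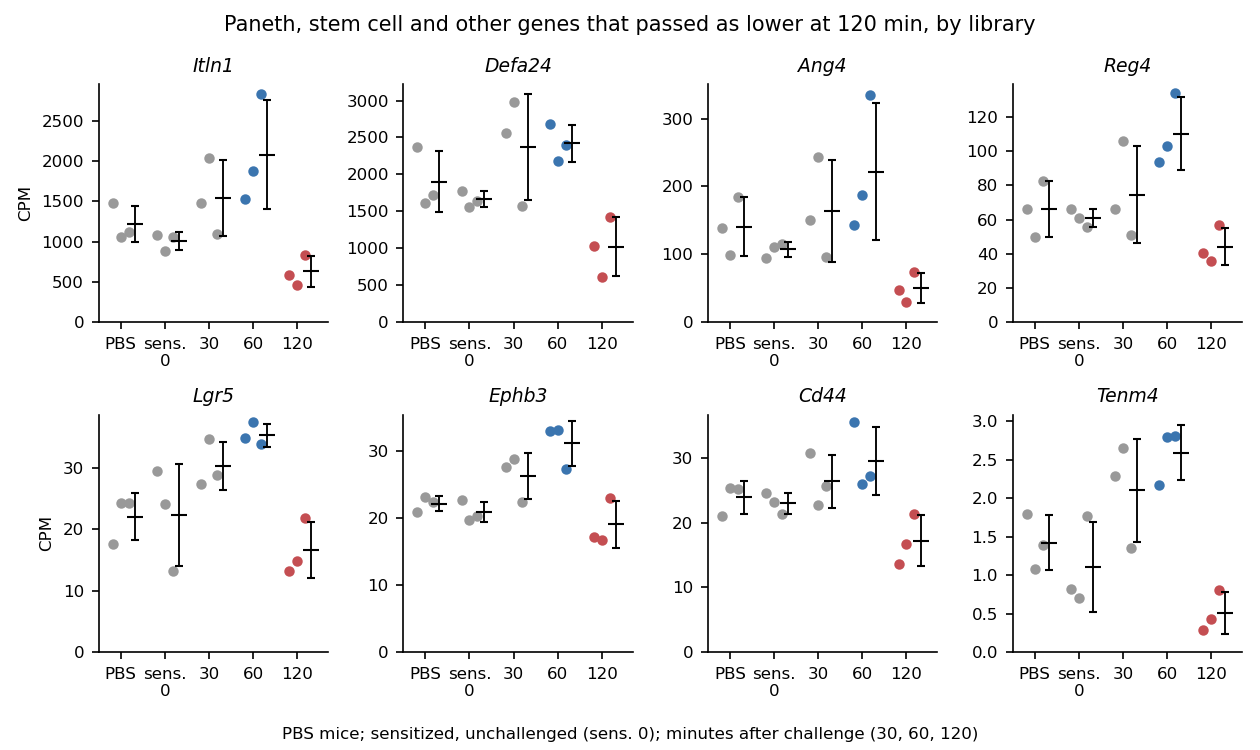
Level in CPM (vertical axes, each from 0) of 8 genes that passed as lower at 120 min in the 15 libraries by group (horizontal axes). Points are libraries, blue for 60 min and red for 120 min, and the bar beside them is the mean ± SD of 3. Red points lie below all blue points in each panel, with Itln1 at 464 to 838 CPM against 1532 to 2832 CPM.

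Among the largest falls were several genes outside the lists. Tenm4, a teneurin, a cell surface protein of cell contacts (ENSMUSG00000048078.16, chromosome 7 from 96171246 to 96911093), was at 2.17, 2.79 and 2.8 CPM at 60 min and 0.282, 0.427 and 0.811 CPM at 120 min (5.03-fold lower; −2.33 ± 0.48, adjusted p = 0.0371). Insrr, a relative of the insulin receptor, was at 2.88, 3.71 and 2.66 CPM at 60 min and 1.22, 0.8 and 0.676 CPM at 120 min (−1.77 ± 0.35, adjusted p = 0.0295), and Pdzrn3, a ubiquitin ligase, at 1.68, 2.63 and 2.2 CPM at 60 min and 0.847, 0.533 and 0.405 CPM at 120 min (−1.86 ± 0.40, adjusted p = 0.0386). Tent5c, which lengthens poly(A) tails, was at 16.8, 25.9 and 34.8 CPM at 60 min and 9.46, 8.37 and 9.55 CPM at 120 min (−1.50 ± 0.24, adjusted p = 0.019), and Habp2, a secreted protease, at 24.9, 32.1 and 48 CPM at 60 min and 10.9, 8.32 and 15.6 CPM at 120 min (−1.59 ± 0.33, adjusted p = 0.0386). In these 5 genes the libraries did not overlap, and in Tent5c and Habp2 the highest was 60 min replicate 3. The others named by the rule were Samd5 (−1.54 ± 0.24), Ccdc18 (−1.50 ± 0.33), Pomk (−1.43 ± 0.23), Parp11 (−1.40 ± 0.27), the zinc finger gene Zkscan7 (−1.38 ± 0.22) and the carboxylesterase Ces1c (−1.41 ± 0.26), whose reads are shared with close copies.

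The genes that were lower had longer transcripts. The median effective length was 3509.9 bases for the 80 lower genes, 1937 bases for the 88 higher genes and 2193 bases for all tested genes. Of the 3742 genes with the longest transcripts 44 were lower and 15 higher, with a median log2 difference of −0.17. Of the 3742 with the shortest, 14 were lower and 25 higher, and the median was 0.16. The part of transcript length in the differences was not tested beyond the offsets given above, under which 46 genes passed.

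Mitochondrially encoded genes, read from the organelle's own genome, were negative in 13 of 13 with a median of −0.77, and 0 passed (2 lower at an unadjusted p below 0.05, 0 by DESeq2 and limma-voom). Replicate 3 was the highest at 60 min: mt-Nd5, a subunit of complex I, was at 6249.8, 10895 and 27984 CPM at 60 min and 6817, 8379.7 and 8137 CPM at 120 min (−0.95 ± 0.41, adjusted p = 0.22). The other 2 libraries at 60 min lay on both sides of those at 120 min, and the list's median was −0.02 without 60 min replicate 3 and 0.07 with the mitochondrial share as a covariate. That covariate was made from these same genes, so it takes out their own difference by construction. B and plasma cell markers were negative in 9 of 9, with a median of −1.53, and 0 passed (4 lower at an unadjusted p below 0.05, 3 by DESeq2 and 2 by limma-voom). Jchain, which links antibody polymers, was at 188, 179.7 and 202 CPM at 60 min and 50.5, 48.2 and 19.6 CPM at 120 min (−2.27 ± 0.53, adjusted p = 0.0643), and Igkc, the κ light chain, at 471, 479.7 and 703 CPM at 60 min and 115, 127 and 35.1 CPM at 120 min (−2.58 ± 0.67, adjusted p = 0.0829). Immunoglobulin genes held 0.16% to 0.243% of counts at 60 min and 0.019% to 0.064% at 120 min (exact two-sided permutation p = 0.1, the smallest that 3 against 3 can give). T cell and intraepithelial lymphocyte markers were positive in 2 of 16, with a median of −0.67, 60 min replicate 3 highest, and 0 passing (0 at an unadjusted p below 0.05, 0 by DESeq2 and limma-voom). The part of these cells in the other results was not tested.

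Several genes tied to allergy and to early signalling did not pass. Il33, an alarmin of the epithelium, was at 13.1, 25.4 and 12.1 CPM at 60 min and 45.6, 24.3 and 24.8 CPM at 120 min (0.90 ± 0.45, adjusted p = 0.292). Mcpt1, a protease of mucosal mast cells, was at 4.94, 3.22 and 13.1 CPM at 60 min and 3.25, 2.13 and 1.22 CPM at 120 min (−1.68 ± 0.75, adjusted p = 0.241). The groups overlapped in both genes. The immediate early genes Fos (0.25 ± 0.17, adjusted p = 0.423) and Egr1 (−0.15 ± 0.18, adjusted p = 0.676) overlapped too. Of 19 cytosolic heat shock genes 17 were positive, with a median of 0.26 and 0 passing (3 higher at an unadjusted p below 0.05, 1 by DESeq2 and 0 by limma-voom). Dnajb1, a co-chaperone of HSP70, was at 96.8, 79.9 and 69.1 CPM at 60 min and 110.1, 102 and 132 CPM at 120 min, without overlap (0.48 ± 0.16, adjusted p = 0.122), and at 179 ± 31.2 CPM (SD, n = 3) in the unchallenged sensitized mice. The inducible HSP70 gene Hspa1a was at 17.6, 10.6 and 12 CPM at 60 min and 23, 8.11 and 114 CPM at 120 min (1.85 ± 0.95, adjusted p = 0.312), with 120 min replicate 3 far above the other 5 and the groups overlapping. It is named after its value was seen. Hspa1a and Hspa1b are near-identical copies.

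**Figure D5:**
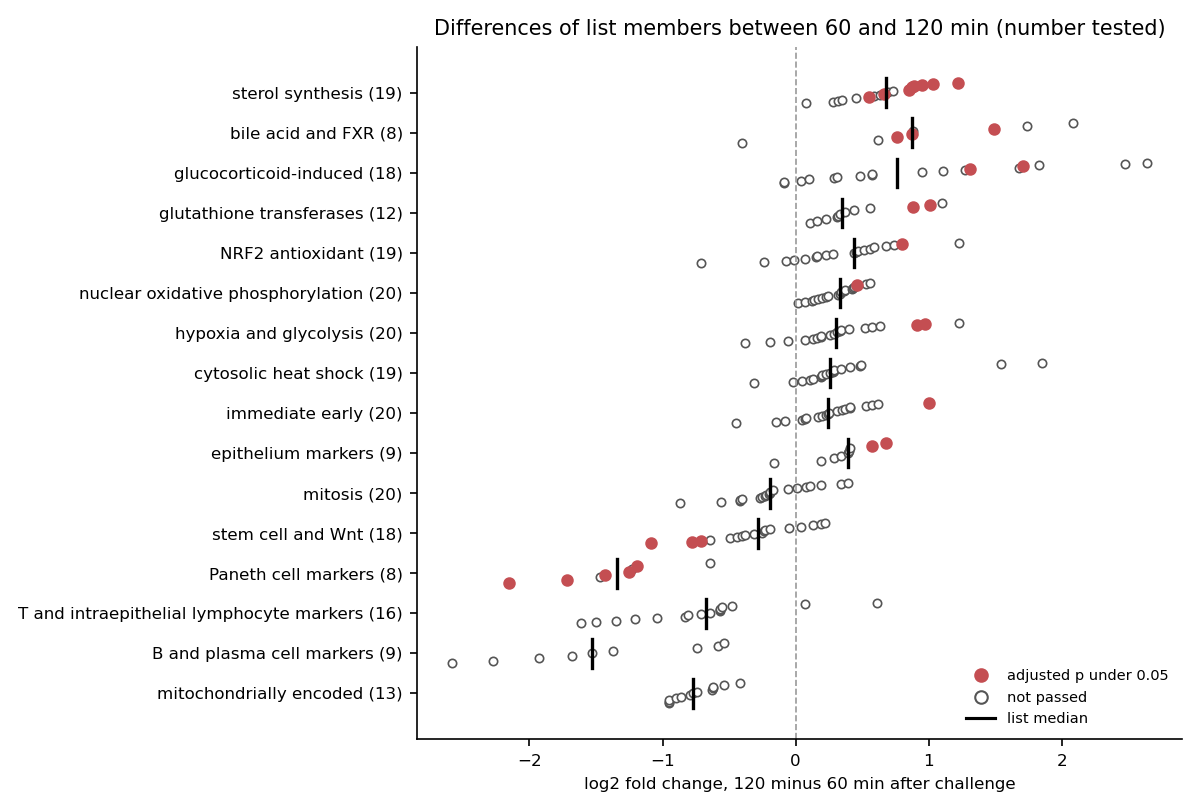
Log2 fold change between 60 and 120 min (horizontal axis, positive where higher at 120 min) of each tested member of 16 gene lists (vertical axis, number tested in brackets). Filled points passed an adjusted p of 0.05, open points did not, and the black bar is the median of the list. Sterol synthesis, with a median of 0.68, lies to the right of 0 throughout, and Paneth cell markers, with a median of −1.34, lie to the left.

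Levels before challenge and at 30 min place both ends of the comparison. Each such contrast shares libraries with the one above, so the values are set side by side only. Against the unchallenged sensitized mice, 1 gene passed at 60 min (0.00668%) and 188 at 120 min (1.26%), and between 30 and 120 min 151 passed (1.01%). Of the 88 genes higher at 120 than at 60 min, 88 were positive against the unchallenged mice at 120 min and 20 at 60 min. Of the 80 lower genes, 79 were negative against them at 120 min and 10 at 60 min. Slc51b was at 31.3 ± 3.47 CPM in the unchallenged sensitized mice and 30.1 ± 5.31 at 30 min (SD, n = 3), and Fdps at 54 ± 6.04 and 67.1 ± 8.22. Itln1 was at 1008 ± 113 and 1538 ± 472 CPM and Lgr5 at 22.3 ± 8.31 and 30.4 ± 3.9, in both cases between the means at 60 and 120 min.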

How the data were processed

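RNA of 15 jejunal isolates was sequenced as paired reads of 151 bp. The submitters' processing notes name cutadapt 1.18, Salmon 1.2.1 and the build mm10. They name no transcript annotation, its release not given in the sources used here. The deposited tables give, per the file headers, each transcript's estimated count of reads, TPM (abundance per length, with equal totals across libraries), length and effective length in bases, all made by the authors. TPM was used here only to weight transcripts when averaging effective length over a gene.

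Estimated counts were summed to 52844 genes with GENCODE M21. Of 139058 transcripts 137943 matched with versions ignored, and the 1115 without a match held 0.374% to 0.602% of a library's counts and were left out. Sums were rounded to whole numbers, as edgeR models counts. Totals of 15661513 to 22691349 set the precision of low genes. edgeR 4.0.16 in R 4.3.3 (filterByExpr, TMM, estimateDisp and glmQLFit, both robust, glmQLFTest) fitted a mean per group to all 15 libraries (10 residual degrees of freedom), and calls needed an adjusted p (Benjamini-Hochberg, 14968 genes) under 0.05. CPM values of single genes are scaled by TMM, and summed marker levels by the total counts of the library alone. Errors beside log2 differences are standard errors from the fit, and log2 CPM levels used a prior count of 2. The p-values measure the spread between these libraries, which were taken to be mice. The fit was first tested on simulated data.

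Named genes were the 15 largest rises and falls among passing genes with a mean of at least 2 CPM in the higher group and no overlap, leaving out gene models known by number only and segments of antigen receptors, then list members that passed (or, in lists with no call, the 3 with the smallest p), and Il33, Mcpt1, Fos, Egr1 and Dnajb1. Some genes that the rule names are not reported here. The members, the 36 pathway and 15 marker lists and the tests were chosen with earlier results of these data known. Lists got no test. The 16 alternatives used DESeq2 1.42.0 or its size factors, limma 3.58.1, upper quartile scaling, other filters, other fits, length offsets and each left-out library. Tables were joined and drawn with the R package data.table (version 1.17.8), Python 3.11.15, pandas 2.3.3, numpy 2.4.6, scipy 1.17.1 and matplotlib 3.10.9.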

Additional observations from a re-analysis of the deposited data

How the results depend on the processing

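The count of passing genes (168, with 88 higher and 80 lower at 120 min) held within 1.5 times under DESeq2 size factors, limma-voom and the removal of mitochondrially encoded genes. With upper quartile scaling 139 genes were lower. Without the filter on low counts 279 passed (144 higher, 135 lower), at a mean of at least 5 CPM 272 (162 lower), and with DESeq2 937 (500 higher, 437 lower). In the 6 libraries alone 0 passed in either direction, with 4 residual degrees of freedom. With the mitochondrial share as a covariate 4 passed (3 higher, 1 lower), and with transcript length offsets 46 (19 higher, 27 lower). Leaving out 1 library gave 0 to 1151 genes, 0 to 603 of them higher and 0 to 548 lower. Of the 51 named genes that passed, 51 kept the call with DESeq2, limma-voom and DESeq2 size factors, 49 with upper quartile scaling, 48 without mitochondrially encoded genes, all 46 tested at a mean of at least 5 CPM, 40 without the filter, 24 with the length offsets, 3 with the covariate, 0 in the 6 libraries alone and 0 to 50 with 1 library left out, all with the same sign. The genes had been picked by their calls in these same libraries, so the kept signs are no separate evidence. The cause of the changes in the number of calls was not tested. No paired analysis was possible because the replicate numbers only name libraries in the order of deposit and pair no mice.

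Among named genes, signs turned only in some that did not pass, mostly markers of other cells at low level. With the length offsets Vwf had 1.45 and Pax6 0.20. With the covariate Cela1 had −0.13, Cxcr2 0.03 and Ccr3 0.83, and limma-voom gave Ccr3 0.32. Over the libraries left out 1 at a time, Col1a2 ran from −3.76 to 0.14 (positive without 60 min replicate 2), Tph1 from −1.08 to 0.12 (positive without 60 min replicate 1), Ret from −0.12 to 0.77 and Pdgfrb from −0.27 to 0.47 (both negative without 120 min replicate 2). Hbb-bt ran from −0.13 to 1.51 and Hba-a1 from −0.23 to 1.57, negative without 60 min replicate 1 and, for Hba-a1, replicate 2 (−0.08). Cela1 ran from −0.19 (without 60 min replicate 3) to 0.39. Cxcr2 ran from −0.54 to 0.27 and Ccr3 from −0.47 to 1.48, positive without 60 min replicate 3 and without 120 min replicate 2.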

Other observations

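Other genes of the absorbing epithelium were mostly positive at 120 min without passing. For the counts in this section, 2954 of all 14968 tested genes had an unadjusted p below 0.05 in edgeR, and DESeq2 called 937. Of 20 brush border genes 16 were positive, with a median of 0.27 and 0 passing (3 higher at an unadjusted p below 0.05, 1 by DESeq2, 0 by limma-voom). Ezr, which ties the microvillus membrane to actin, was at 669.6, 736 and 543 CPM at 60 min and 1163, 955 and 832 CPM at 120 min (0.60 ± 0.17, adjusted p = 0.0822). Ion transport genes were positive in 16 of 19, with a median of 0.24 and 0 passing (5 higher at an unadjusted p below 0.05, 4 by DESeq2, 0 by limma-voom). Slc9a3, the sodium and proton exchanger of the brush border, was at 117, 121 and 120.3 CPM at 60 min and 294, 133 and 231 CPM at 120 min (0.88 ± 0.22, adjusted p = 0.0667), and Guca2b, the peptide uroguanylin, at 275, 364 and 191 CPM at 60 min and 942, 429 and 639 CPM at 120 min (1.28 ± 0.37, adjusted p = 0.101). Fat absorption and chylomicron genes had 15 of 18 positive and a median of 0.40, tight junction genes 11 of 14 and 0.34, and amino acid and peptide transporters 9 of 12 and 0.24. In these 3 lists 0 passed, with 5, 6 and 2 higher at an unadjusted p below 0.05, 2, 3 and 1 by DESeq2 and 0 by limma-voom. In hexose absorption and metabolism 10 of 12 were positive, with a median of 0.22 that turned to −0.02 without 120 min replicate 1, and Slc2a1 was the 1 that passed.

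Genes of protein folding and stress gave small differences. Of 20 genes of the unfolded protein response 13 were positive (median 0.11) and of 19 genes of the integrated stress response 15 (median 0.36), with 0 passing in either. At an unadjusted p below 0.05 there were 8 higher and 2 lower in the first and 6 higher and 1 lower in the second. DESeq2 called 1 and 2, and limma-voom 0. Herpud1, of protein quality control in the endoplasmic reticulum, had 0.64 ± 0.19, adjusted p = 0.102, and Slc3a2, a subunit of amino acid carriers, 0.54 ± 0.16, adjusted p = 0.0949. Cytosolic ribosomal proteins were positive in 18 of 20 (median 0.18), clock genes in 13 of 19 (median 0.27) and PPARα targets in 13 of 19 (median 0.11, −0.01 without 120 min replicate 2). In each 0 passed, with 3, 3 and 2 higher at an unadjusted p below 0.05 and 0, 0 and 1 by DESeq2. In the clock list 1 was lower at that p. Cry1, a repressor of the clock, had 0.85 ± 0.30, adjusted p = 0.147, and Npas2, an activator, −1.0 ± 0.36, adjusted p = 0.156.

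Several lists were split or near 0. The median was −0.07 for 13 cytochrome P450 genes, −0.04 for 18 NF-κB genes, 0.07 for 19 interferon-stimulated genes and −0.07 for 11 genes of the EGF receptor family, and its sign changed under 5, 1, 5 and 3 alternatives. It was 0.15 for the 5 tested genes of type 2 cytokine sensing and −0.12 for 16 genes of the SWI/SNF remodelling complex, where 10 were negative. In these 6 lists edgeR passed 0. At an unadjusted p below 0.05 there were 3 higher and 2 lower among the P450 genes, 4 and 2 in the EGF receptor family and 0 and 4 in SWI/SNF, and DESeq2 called 3, 3 and 2. There were 1 and 1 in NF-κB, 1 and 0 among interferon-stimulated genes and 0 and 0 in type 2 sensing, where DESeq2 called 0, and limma-voom called 0 in all 6. Arid1a, a large subunit of that complex, had −0.63 ± 0.15, adjusted p = 0.0584, and Ereg, the growth factor epiregulin, 1.05 ± 0.32, adjusted p = 0.115. Markers of other cells gave 0 passing genes and medians of −0.12 (enteroendocrine, 15 tested), −0.67 (tuft, 6), −0.54 (macrophage and dendritic, 11), −0.96 (mast, 4), −0.01 (granulocyte, 3), −0.71 (stromal, 6), −0.07 (endothelial, 6), 0.30 (erythroid, 5), 0.12 (pancreas and stomach, 1) and −0.53 (neuron and glia, 2). Their sign changed under 3 alternatives for enteroendocrine, 4 for granulocyte, 1 for stromal, 3 for endothelial, 1 for erythroid and 2 for pancreas and stomach markers. Among them 5 genes were lower at an unadjusted p below 0.05, and DESeq2 and limma-voom called 0. The granulocyte markers S100a8 and S100a9 were at 0 in all 6 libraries, and summed granulocyte markers reached at most 2.62 CPM.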
